A study of Mus musculus with 32 samples.

Results

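The 10 genes described here act in mitochondrial fusion, fission, cristae and iron-sulfur cluster assembly: Mfn1, Mfn2, Opa1, Dnm1l, Fis1, Mff, Mtfr1, Immt, Chchd3 and Iscu. They were chosen by symbol, with earlier results of these data known, and all 10 were found among the 22337 genes of the tables. RNA was measured in hippocampus, meninges and sorted meningeal lymphatic endothelial cells (mLECs) of WT mice, untreated 5xFAD mice and 5xFAD mice given near-infrared light. Every mouse was a male of 6 months on a C57BL/6J background, and each sample came from 1 mouse. The 5xFAD transgenes are expressed from the Thy1 promoter, and the WT mice were non-carrier littermates. Light was applied to the shaved scalp under isoflurane in repeated sessions over weeks, and controls were handled alike under indoor lighting. The mLECs were sorted as DAPI−CD45−CD31+PDPN+ cells. Hippocampus had 4 mice in each of the WT, untreated and light-treated groups, and meninges and mLECs each had 4, 3 and 3.

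Mitochondria fuse and divide continually. Mitofusins (Mfn1, Mfn2) join outer membranes and Opa1 joins inner membranes, whereas Dnm1l, recruited by adaptors such as Mff, constricts the organelle to divide it. Opa1 and the MICOS complex, which holds Immt and Chchd3, shape the cristae, and neurons depend on this balance to place mitochondria in axons and synapses.

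The summed counts of a library lay between 13952825 and 23856476 for hippocampus, 6601143 and 14708202 for meninges, and 14231415 and 24207326 for mLECs. Hippocampus libraries detected 16371 to 18264 genes, meninges libraries 17427 to 19769 and mLEC libraries 5998 to 9020. Levels are given as FPKM, which scales a count by transcript length and library size. A fold change is a log2 ratio fitted by edgeR to the counts, with its standard error (SE), and a gene was called at an adjusted p below 0.05 over all genes tested. The members were not tested between mLECs and the other tissues, which are in separate tables.

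The genotype labels were checked against Thy1, and the meninges libraries were described by marker genes. Thy1 was between 170 and 189 FPKM in the WT hippocampus samples, between 407 and 622 in the untreated 5xFAD samples and between 434 and 522 in the light-treated samples. The 8 hippocampus samples labelled 5xFAD therefore lay above all 4 labelled WT. In meninges Thy1 was between 10.6 and 21.3 FPKM in WT, between 18.7 and 23.9 FPKM in untreated 5xFAD and between 13.6 and 15.6 FPKM in light-treated 5xFAD mice. There the WT range overlapped both 5xFAD groups, which did not overlap each other, so Thy1 does not separate the genotypes. The meninges libraries held much choroid plexus RNA, with summed marker levels from 15710 to 49556 FPKM led by Ttr, and pineal markers from 61.7 to 637 FPKM led by Tph1.

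The mLEC samples differed in the markers of their own cell type. The endothelial marker Pecam1 was present in all 10 samples, and the leukocyte gene Ptprc, which encodes the CD45 excluded by the sort, was at 0 in all 10. The 4 macrophage and leukocyte markers, Ptprc among them, summed to at most 20.2 FPKM in WT, 14.97 in untreated and 2.47 in light-treated samples. Summed markers reached 260 FPKM for oligodendrocytes, 563 for choroid plexus and 42.5 for microglia, all in WT. Red blood cell markers reached 303 FPKM in WT, 6222 in untreated and 0.72 in light-treated samples. Mural cell markers reached 455, 432 and 17.7 FPKM in the same order. Leptomeningeal fibroblast markers reached 612 FPKM in light-treated samples. The 6 lymphatic markers summed to 6610, 37.9, 4255 and 36.0 FPKM in WT replicates 1 to 4. They summed to 1067, 1574 and 4429 FPKM in untreated replicates 1, 2 and 4, and to 9572, 2940 and 8708 FPKM in light-treated replicates 1, 2 and 3. The sum was led by Ccl21a except in WT replicates 2 and 4, where Flt4 led. Prox1 was at 0 in WT replicates 1 and 2 and in untreated replicate 2. Pdpn, the gene of a protein used to sort the cells, was at 0 in WT replicates 2 and 4 and untreated replicates 2 and 4.

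Among the fusion genes in hippocampus, Mfn2 was the most abundant. Mfn2 (ENSMUSG00000029020, GRCm38 chromosome 4, 147873599 to 147904704) encodes an outer membrane mitofusin that also tethers mitochondria to the endoplasmic reticulum. Its levels were 55.3, 62.2, 56.6 and 57.3 FPKM in WT, 41.4, 47.5, 30.3 and 57.9 FPKM in untreated 5xFAD, and 50.2, 64.4, 54.4 and 48.5 FPKM in light-treated 5xFAD mice. Untreated replicate 3 was the lowest of the 12 samples and untreated replicate 4 lay within the WT range. Mfn1 (ENSMUSG00000027668, chromosome 3, 32529465 to 32579239), the other mitofusin gene, was about an order of magnitude lower, from 4.25 to 7.20 FPKM, with overlapping groups.

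Opa1 (ENSMUSG00000038084, chromosome 16, 29579334 to 29654884), the inner membrane fusion GTPase, was lower in untreated 5xFAD than in WT hippocampus. It was 19.2, 17.6, 19.9 and 18.2 FPKM in WT and 12.4, 13.5, 15.2 and 14.0 FPKM in untreated 5xFAD mice. All 4 untreated samples lay below all 4 WT samples. In light-treated mice it was 13.6, 16.3, 13.7 and 13.9 FPKM, and all 4 lay below the WT samples and among or above the untreated ones.

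Of the fission genes, Dnm1l (ENSMUSG00000022789, chromosome 16, 16312230 to 16358959), the dynamin-related GTPase that divides mitochondria, was 49.7, 49.7, 55.3 and 47.6 FPKM in WT hippocampus. It was 41.7, 50.3, 44.0 and 40.4 FPKM in untreated 5xFAD and 38.3, 40.7, 40.3 and 41.9 FPKM in light-treated mice. Untreated replicate 2 reached the WT range, and the other 3 untreated and all 4 light-treated samples lay below it. Fis1 (ENSMUSG00000019054, chromosome 5, 136953275 to 136966234), an outer membrane adaptor, was the most abundant member, from 249 to 388 FPKM. Mff (ENSMUSG00000026150, chromosome 1, 82724890 to 82752394), the receptor that brings Dnm1l to the outer membrane, ranged from 182 to 220 FPKM. Mtfr1 (ENSMUSG00000027601, chromosome 3, 19187327 to 19220817), a fission regulator, was the least abundant, from 3.15 to 5.32 FPKM.

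For the cristae and iron-sulfur genes in hippocampus the highest sample was 1.21 (Immt), 1.25 (Chchd3) and 1.38 (Iscu) times the lowest. Immt (ENSMUSG00000052337, chromosome 6, 71831331 to 71877388), the core of MICOS, ranged from 55.8 to 67.8 FPKM, and Chchd3 (ENSMUSG00000053768, chromosome 6, 32790976 to 33060260), another MICOS subunit, from 60.6 to 75.6 FPKM. Iscu (ENSMUSG00000025825, chromosome 5, 113772748 to 113778288), the scaffold on which iron-sulfur clusters are assembled, ranged from 116 to 160 FPKM. The order of the mean levels was Fis1, Mff, Iscu, Chchd3, Immt, Mfn2, Dnm1l, Opa1, Mfn1 and Mtfr1. The ranges of Chchd3, Immt and Mfn2 overlapped, as did those of Mfn2 and Dnm1l and those of Mfn1 and Mtfr1.

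**Figure D1:**
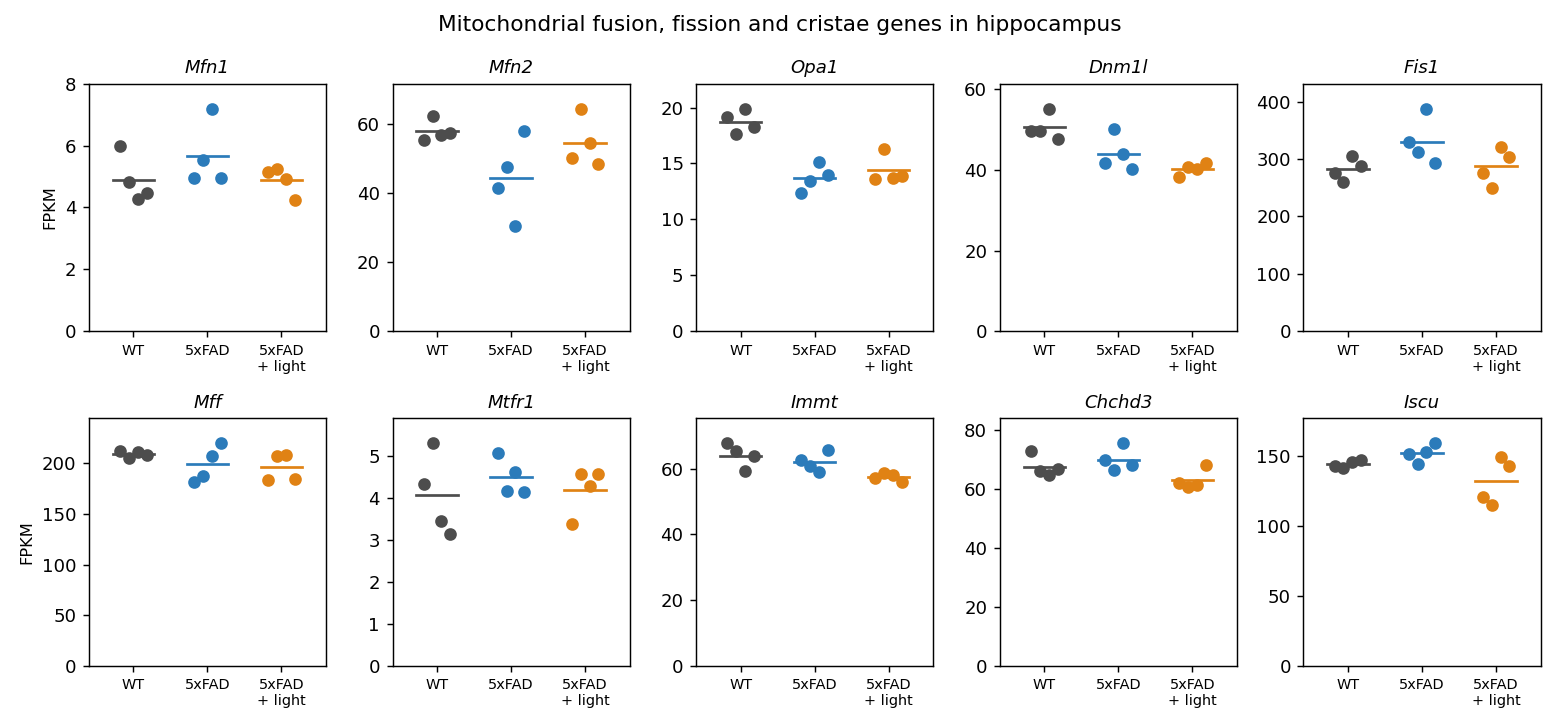
FPKM of the 10 genes in each hippocampus sample, by group, with a line at the group mean (4 mice a group). The 4 untreated 5xFAD samples of Opa1 lie between 12.4 and 15.2 FPKM, below the 4 WT samples.

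The comparison of untreated 5xFAD with WT hippocampus asks what the transgenes change. edgeR called 2 of 10 members, both lower (8.54% of the 12981 genes tested were called). At an unadjusted p below 0.05 there were 4 members (24.0% of genes), 3 lower and 1 higher. The higher one was Mfn1, at 0.28 (SE 0.13, adjusted p = 0.198), which did not pass. Opa1 fell by 0.40 on the log2 scale (SE 0.09, adjusted p = 0.0138), and Dnm1l fell by 0.29 (SE 0.08, adjusted p = 0.0372). In FPKM the groups did not overlap for 1 member, Opa1 (14.5% of genes). DESeq2 called the same 2 members (13.3% of genes) and limma only Opa1 (7.77% of genes). Mfn2 had a log2 fold change of −0.39 (SE 0.15, adjusted p = 0.138) and did not pass, except without untreated replicate 4, the highest of its group (−0.52, adjusted p = 0.0333). The median log2 fold change of the members was 0.02, against 0.01 for all genes tested.

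Dnm1l passed in 6 of 18 fits run for this comparison and Opa1 in 17, with adjusted p from 0.00167 to 0.192 and from 0.000363 to 0.133. The Dnm1l call was lost without any of WT replicates 1, 2, 3 and 4 or 5xFAD replicates 1 and 3, with a stricter expression filter, with a fit of the compared groups alone, with a replicate block and with limma. Its log2 fold change stayed between −0.34 and −0.20 over the 18 fits. Without the 3 libraries highest in choroid plexus markers (WT replicate 2, untreated replicates 1 and 2) neither passed: Opa1 was at −0.38 (adjusted p = 0.133) and Dnm1l at −0.34 (adjusted p = 0.130).

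Marker genes of several cell types moved in the same comparison. Of the 6 neuronal markers 1 fell, Gad1 by 0.46 on the log2 scale (SE 0.11, adjusted p = 0.0192). The neuronal markers, led by Snap25, summed to 2122, 2035, 2204 and 2149 FPKM in WT and 1719, 1767, 2093 and 1968 FPKM in untreated 5xFAD mice. Of 4 astrocyte markers 3 rose, led by Gfap, and their sums were 549, 505, 490 and 482 FPKM in WT and 2967, 1130, 598 and 1770 FPKM in untreated 5xFAD mice. All 4 microglial markers rose, with sums from 121 to 146 FPKM in WT and from 217 to 293 FPKM in untreated 5xFAD mice. Of 5 leptomeningeal fibroblast markers 2 rose, and their sums were 49.0, 60.6, 30.8 and 29.9 FPKM in WT, led by Dcn, and 38.6, 77.5, 76.8 and 110 FPKM in untreated 5xFAD mice, led by Igf2 or Dcn. Both tested macrophage and leukocyte markers, Ptprc and Pf4, rose, with sums of the 4 listed from 2.78 to 3.46 FPKM in WT and from 8.11 to 15.4 FPKM in untreated 5xFAD mice. Of 4 lymphatic markers tested Pdpn rose. Choroid plexus markers, led by Ttr, were called by edgeR in 0 of 5 cases (0 at an unadjusted p below 0.05), and summed to 113, 2819, 410 and 36.5 FPKM in WT and 3216, 2940, 698 and 208 FPKM in untreated 5xFAD mice. None of these markers was at 0 in every hippocampus sample. Their part in the lower Opa1 and Dnm1l was not tested, and in whole tissue fewer cells of a type and less RNA per cell cannot be told apart.

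Other genes of the same processes were called at a share near or below that of all genes, 8.54%, in untreated 5xFAD hippocampus. Of 22 other dynamics genes tested 2 passed: Gdap1, a fission factor of the outer membrane, fell by 0.34 on the log2 scale (adjusted p = 0.0163), and Dnm2, a dynamin, rose by 0.40 (adjusted p = 0.0300). Of 14 other cristae genes Apool passed, higher by 0.50 (adjusted p = 0.0417), and of 18 other iron-sulfur genes 0 passed with edgeR (2 at an unadjusted p below 0.05, against 24.0% of all genes). Of 16 genes of general mitochondrial content 1 passed, the import receptor gene Tomm20, which fell by 0.38 (adjusted p = 0.0351). These 16 genes summed to between 1294 and 1305 FPKM in WT and between 1098 and 1283 FPKM in untreated 5xFAD mice.

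The comparison of light-treated with untreated 5xFAD hippocampus asks what light changed. edgeR called 0 of 10 members (0.455% of genes), with 0 at an unadjusted p below 0.05 (18.3% of genes). DESeq2 called 0 (4.95% of genes) and limma 0 (0.462% of genes). The groups did not overlap for 1 member, Immt, which was between 55.8 and 58.8 FPKM in light-treated and between 58.9 and 65.7 FPKM in untreated mice (7.63% of genes). Its fitted log2 fold change was −0.08 (SE 0.08, adjusted p = 0.616), and in TMM-normalised counts its groups overlapped. Opa1 had a log2 fold change of 0.10 (SE 0.09, adjusted p = 0.597) and Dnm1l of 0.02 (SE 0.08, adjusted p = 0.901), which ranged from −0.12 to 0.06 over 18 fits. Most markers of 2 cell types were lower at an unadjusted p below 0.05, with 0 called by edgeR: 4 of 5 leptomeningeal fibroblast markers and 3 of 5 choroid plexus markers. The fibroblast markers, led by Igf2 or Dcn, summed to 38.6, 77.5, 76.8 and 110 FPKM in untreated and 14.3, 24.4, 25.6 and 23.4 FPKM in light-treated mice, without overlap. The choroid plexus markers, led by Ttr, summed to between 208 and 3216 FPKM and between 63.6 and 245 FPKM. Their part in the level of Immt was not tested. The median of the members was −0.11, against −0.02 for all genes.

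Between light-treated 5xFAD and WT hippocampus edgeR called 0 of 10 members (3.59% of genes), with 2 lower at an unadjusted p below 0.05 (16.7% of genes), DESeq2 called 2 (6.74% of genes) and limma called 0 (3.11% of genes). The groups did not overlap in FPKM for 3 members, Opa1, Dnm1l and Immt, all lower (14.9% of genes), and in TMM-normalised counts for 2, since Immt overlapped. The 2 called by DESeq2 were Opa1, in edgeR at −0.30 (SE 0.09, adjusted p = 0.0904) and Dnm1l at −0.26 (SE 0.08, adjusted p = 0.0943). Cell type markers differed here too: 3 of 4 microglial markers, Gfap of 4 astrocyte markers and Ptprc of 2 leukocyte markers tested rose, and Gad1 of 6 neuronal markers fell. Summed levels in light-treated mice were 190, 202, 257 and 260 FPKM for microglia, led by Csf1r, and 1005, 1025, 1338 and 1362 FPKM for astrocytes, led by Gfap. They were 1841, 1866, 1915 and 1785 FPKM for neurons, led by Snap25, and 130, 116, 63.6 and 245 FPKM for choroid plexus, led by Ttr. Of the 5 choroid plexus markers edgeR called 0 (3 lower at an unadjusted p below 0.05). The part of these markers in the values of Opa1 and Dnm1l was not tested. This comparison shares its WT samples with the untreated comparison and its light-treated samples with the light comparison.

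Between WT hippocampus and meninges edgeR called 6 of 10 members (71.1% of 14144 genes), DESeq2 called 7 (72.4% of genes) and limma 5 (70.6% of genes). In meninges Mfn2 fell by 1.64 on the log2 scale (SE 0.23, adjusted p = 7.85e-05), Opa1 by 1.56 (SE 0.17, adjusted p = 1.64e-05) and Mff by 1.53 (SE 0.22, adjusted p = 0.000108). Dnm1l fell by 0.71 (SE 0.17, adjusted p = 0.00346). It passed in 14 of 16 fits, with adjusted p up to 0.144 and a log2 fold change between −0.85 and −0.38. Mtfr1 rose by 1.84 (SE 0.24, adjusted p = 5.76e-05) and Fis1 by 0.61 (SE 0.18, adjusted p = 0.0112). Of the other dynamics genes 13 of 22 were called, 11 of them lower in meninges, and of the other cristae genes 5 of 14, 4 of them higher. Of the other iron-sulfur genes 17 of 18 were called, 10 of them higher, and of the mitochondrial content genes 8 of 16, all lower. Neuronal markers summed to a mean of 2127 FPKM in WT hippocampus and 264 FPKM in WT meninges. Choroid plexus markers summed to a mean of 845 and 33861 FPKM. The part of these markers in the members' values was not tested.

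In meninges, the fusion gene Mfn1 was 4.71, 4.25, 7.74 and 4.88 FPKM in WT, 6.62, 7.16 and 5.17 FPKM in untreated 5xFAD and 3.41, 4.08 and 3.16 FPKM in light-treated 5xFAD mice. The 3 light-treated samples were the lowest of the 10. Mfn2 ranged from 13.4 to 28.4 FPKM and Opa1 from 5.01 to 9.10 FPKM, with overlapping groups for both.

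Among the fission genes in meninges, Mtfr1 was 17.2, 15.8, 10.6 and 7.30 FPKM in WT, 10.03, 14.9 and 12.2 FPKM in untreated and 15.5, 29.7 and 26.8 FPKM in light-treated mice. Mff was 104, 87.2, 68.9 and 47.7 FPKM in WT, 78.9, 62.4 and 82.1 FPKM in untreated and 92.5, 116 and 143 FPKM in light-treated mice. For both genes every light-treated sample lay above every untreated one, and WT replicate 1 lay within the light-treated range of each. Dnm1l ranged from 23.6 to 59.6 FPKM and Fis1 from 296 to 552 FPKM, with overlapping groups.

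Immt was 68.2, 57.3, 49.7 and 56.1 FPKM in WT, 45.4, 48.3 and 45.1 FPKM in untreated and 55.8, 67.6 and 72.7 FPKM in light-treated meninges. Chchd3 was 61.6, 61.0, 48.8 and 47.2 FPKM in WT, 45.1, 53.0 and 49.0 FPKM in untreated and 66.5, 68.9 and 76.5 FPKM in light-treated meninges. Both MICOS genes were higher in each light-treated sample than in each untreated sample, and Chchd3 was also above each WT sample in FPKM. In TMM-normalised counts Chchd3 overlapped with WT. Iscu was 205, 239, 139 and 142 FPKM in WT, 133, 155 and 141 FPKM in untreated and 190, 198 and 203 FPKM in light-treated meninges. For Iscu every light-treated sample lay above every untreated one, and WT replicates 1 and 2 lay above all 3 light-treated samples while replicates 3 and 4 lay below them. In TMM-normalised counts WT replicate 1 of Iscu lay within the light-treated range.

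**Figure D2:**
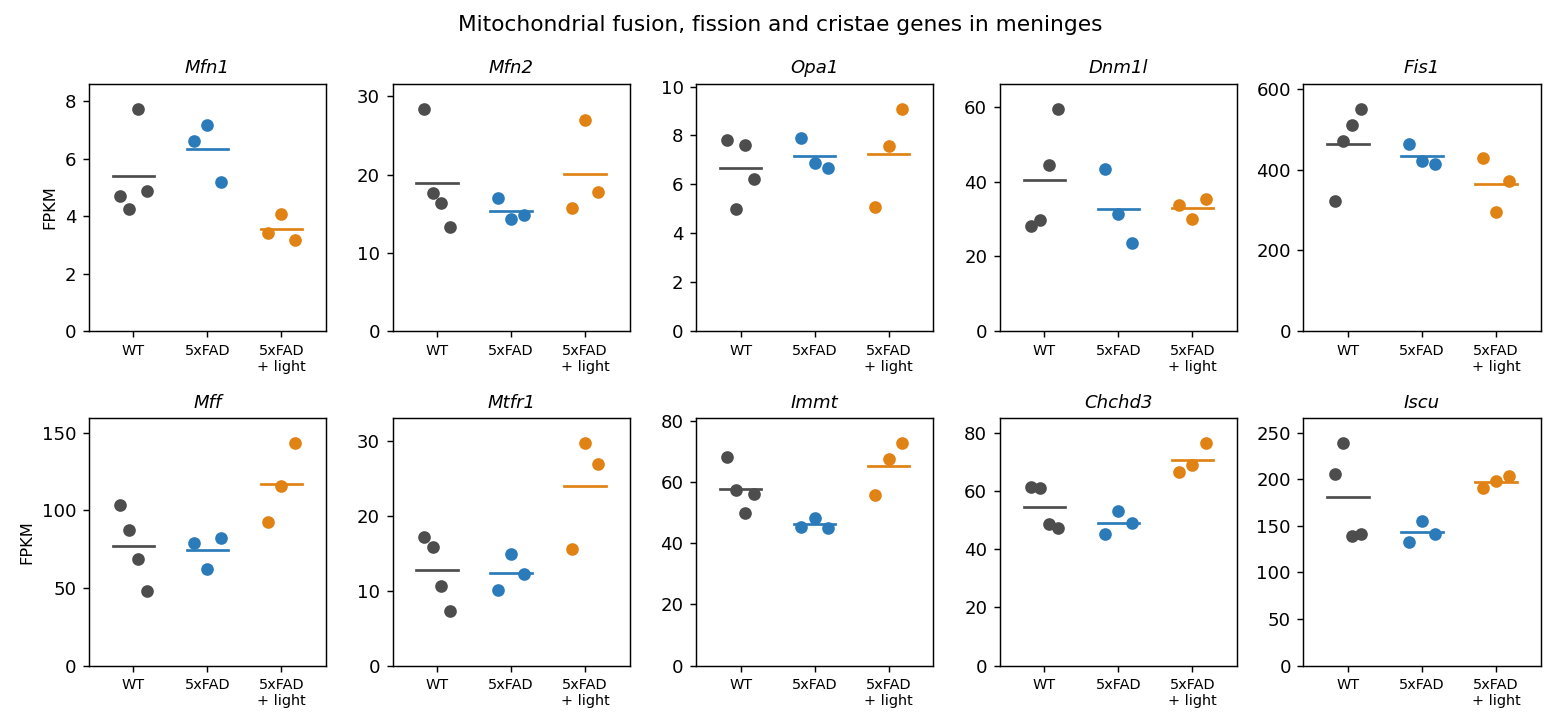
FPKM of the 10 genes in each meninges sample, by group, with a line at the group mean (4 WT, 3 untreated and 3 light-treated 5xFAD mice). The 3 light-treated samples of Chchd3 lie between 66.5 and 76.5 FPKM, above all others in FPKM (but not above WT in TMM-normalised counts), and those of Mfn1 lie between 3.16 and 4.08 FPKM, below all others.

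In the comparison of light-treated with untreated 5xFAD meninges, the groups did not overlap for 6 of 10 members (20.8% of 14318 genes). Mff, Mtfr1, Immt, Chchd3 and Iscu were higher in the light-treated mice (10.1% of genes) and Mfn1 was lower (10.7% of genes). The same 6 did not overlap in TMM-normalised counts. edgeR called 0 of 10 members (0.014% of genes), with 5 at an unadjusted p below 0.05 (12.7% of genes), and DESeq2 called 0 (0.625% of genes), as did limma (0.00698% of genes). The log2 fold change was −0.87 for Mfn1 (SE 0.25, adjusted p = 0.286), 0.83 for Mtfr1 (SE 0.29, adjusted p = 0.310) and 0.63 for Mff (SE 0.28, adjusted p = 0.386). It was 0.50 for Chchd3 (SE 0.22, adjusted p = 0.383), 0.47 for Immt (SE 0.21, adjusted p = 0.387) and 0.47 for Iscu (SE 0.26, adjusted p = 0.449). The median over the members was 0.41, against 0.04 for all genes. The study names Mfn2, Immt and Iscu among genes up-regulated in this same comparison. The members were therefore not chosen independently of it, and their count and median are descriptions only.

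Library measures moved with these values in part. Total counts were 7657892, 11302983 and 9383031 in untreated, 12915229, 14708202 and 10018203 in light-treated and 14541203, 12613091, 8828798 and 6601143 in WT meninges. WT replicates 1 and 2, the deeper WT libraries, were also the higher WT samples for Mtfr1, Mff, Immt, Chchd3 and Iscu and the lower ones for Mfn1, the 6 members without overlap. Among the light-treated samples the shallowest, replicate 4, was instead the highest for Mff, Immt, Chchd3 and Iscu and the lowest for Mfn1. Among the untreated samples the deepest, replicate 2, was the highest for Mtfr1, Immt, Chchd3, Iscu and Mfn1 and the lowest for Mff. The library total behind the FPKM, relative to the summed counts and to the mean of the tissue, was the same factor for every gene of a sample. It was 1.012, 0.998 and 1.017 in untreated and 0.987, 0.978 and 0.991 in light-treated meninges, a spread of 4.33% over the 10 samples. The part of these measures in the members' values was not tested.

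The cell type markers overlapped between light-treated and untreated meninges in their sums, and edgeR called 0 of the 5 choroid plexus and 0 of the 5 tested lymphatic markers (at an unadjusted p below 0.05, 1 and 0). At that threshold 1 neuronal and 1 astrocyte marker were lower, and 1 microglial and 1 leptomeningeal fibroblast marker were higher, with 0 called. Median log2 fold changes of tested markers were −0.66 for neurons, 0.88 for skeletal muscle and 1.10 for red blood cells. Lymphatic markers summed to 138, 163 and 194 FPKM in untreated, where Pdpn led, and 265, 179 and 264 FPKM in light-treated mice, where Ccl21a led in replicates 1 and 4. The median log2 fold change of the 5 tested lymphatic markers was nevertheless −0.24, so the sums do not describe the whole list. Choroid plexus markers, led by Ttr, summed to 33554, 30376 and 26088 FPKM in untreated and 32258, 28907 and 49556 FPKM in light-treated mice. No marker of these lists was at 0 in every meninges sample, and their part in the members' values was not tested.

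The other genes of these processes also had 0 calls by edgeR in that comparison. At an unadjusted p below 0.05 there were 5 of 22 other dynamics genes, 2 of 14 other cristae genes, 1 of 18 other iron-sulfur genes and 1 of 16 genes of mitochondrial content, against 12.7% of all genes. Their medians were 0.07, 0.13, 0.28 and 0.15, against 0.04 for all genes. The smallest p among the dynamics genes belonged to Inf2, an actin-nucleating formin, at −1.23 (SE 0.30, adjusted p = 0.286). Among the cristae genes it belonged to the MICOS gene Apoo at 0.94 (SE 0.29, adjusted p = 0.293), among the iron-sulfur genes to the cysteine desulfurase gene Nfs1 at 0.68 (SE 0.22, adjusted p = 0.297), and among the content genes to the channel gene Vdac2 at 0.55 (SE 0.23, adjusted p = 0.353).

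The light difference was compared between the tissues in a fit of all 22 hippocampus and meninges samples, taken as independent. edgeR called 0 of 10 members for a difference between the tissues (1.05% of 15132 genes), with 6 at an unadjusted p below 0.05 (19.8% of genes). Chchd3 had the smallest adjusted p, with a log2 fold change 0.63 higher in meninges than in hippocampus (SE 0.20, adjusted p = 0.0979). Mtfr1 differed by 0.95 (SE 0.31, adjusted p = 0.112) and Mfn1 by −0.66 (SE 0.25, adjusted p = 0.155). These differences did not pass, so the tissues are not shown to differ.

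**Figure D3:**
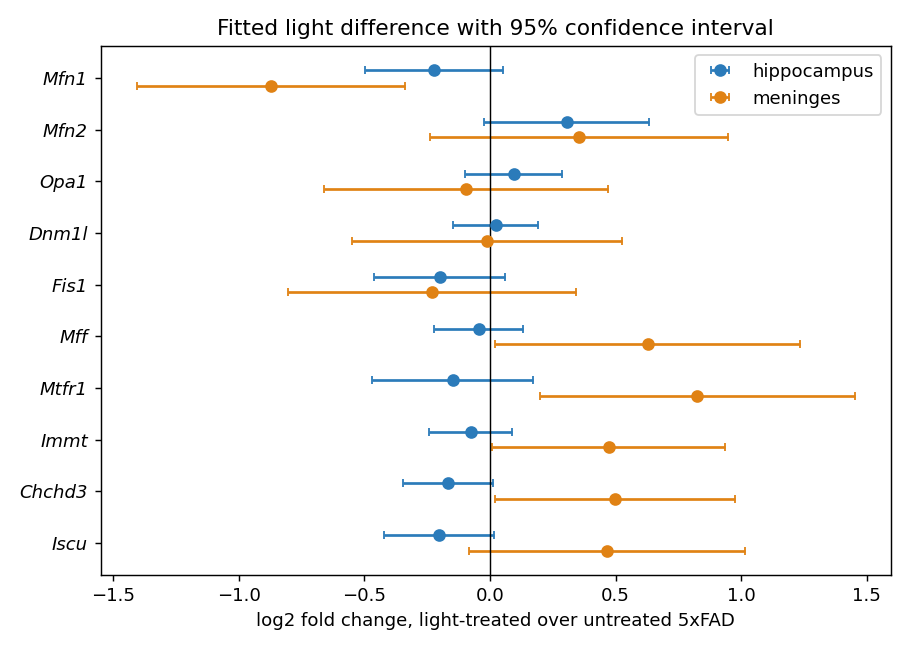
Log2 fold change of light-treated over untreated 5xFAD mice for each gene in hippocampus and meninges, with bars for the 95% confidence interval of the edgeR fit. The estimate for Mtfr1 is 0.83 in meninges and −0.15 in hippocampus, and no member was called in either tissue by edgeR or DESeq2.

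Untreated 5xFAD and WT meninges had 0 members called by edgeR (0.0% of genes), 0 at an unadjusted p below 0.05 (4.01% of genes) 0 called by DESeq2 (0.0% of genes) and 0 by limma (0.0% of genes). The groups did not overlap for 1 member, Immt, lower in untreated mice at −0.23 (SE 0.20, adjusted p = 0.987; 4.85% of genes). Between light-treated 5xFAD and WT meninges edgeR called 0 of 10 members (0.014% of genes), with 3 at an unadjusted p below 0.05 (16.4% of genes), DESeq2 called 0 (3.12% of genes) and limma called 0 (0.021% of genes). The groups did not overlap in FPKM for 2 members, Mfn1 (lower) and Chchd3 (higher; 12.3% of genes). In TMM-normalised counts they were Mfn1 (lower) and Mtfr1 (higher). Mtfr1 had the smallest adjusted p there, at 0.95 (SE 0.27, adjusted p = 0.147). Untreated mice are shared between the first of these and the light comparison, so the values are given side by side only.

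In mLECs the members varied far more between replicates than in the tissues. Mtfr1 stood out, with 3319, 5256, 482 and 2597 counts in WT, 1826, 517 and 3614 counts in untreated 5xFAD and 2, 8 and 0 counts in light-treated 5xFAD mice. In FPKM that was 66.6, 140, 18.2 and 38.9 in WT, 41.7, 21.98 and 90.6 in untreated and 0.10, 0.11 and 0.00 in light-treated mice. All 3 light-treated samples lay below all 7 others. A count of 0 allows up to 3 counts by counting error alone.

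The other members were not separated by group. Iscu, Fis1 and Dnm1l had counts above 3 in all 10 samples, from 117 to 478, from 60.1 to 568 and from 14.5 to 73.6 FPKM. Opa1 had 3 counts or fewer in 6 of 10 samples and was not tested. Mfn1 had 3 counts or fewer in 4 samples, 2 of them WT and 2 light-treated, and was between 6.23 and 9.29 FPKM in the 3 untreated samples. Mfn2 had 3 counts or fewer in 1 sample of each group: it was 39.6, 0.00, 1.19 and 49.2 FPKM in WT, 7.13, 9.88 and 0.00 FPKM in untreated and 1.20, 21.6 and 0.00 FPKM in light-treated mice. Mff was at 0 in 1 sample, Immt at 2 counts in 1 sample, and Chchd3 at 3 counts or fewer in 2. Vdac1, a channel of every mitochondrion, was also at 0 in WT replicates 1 and 4, so a 0 in these libraries does not show a gene to be silent.

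**Figure D4:**
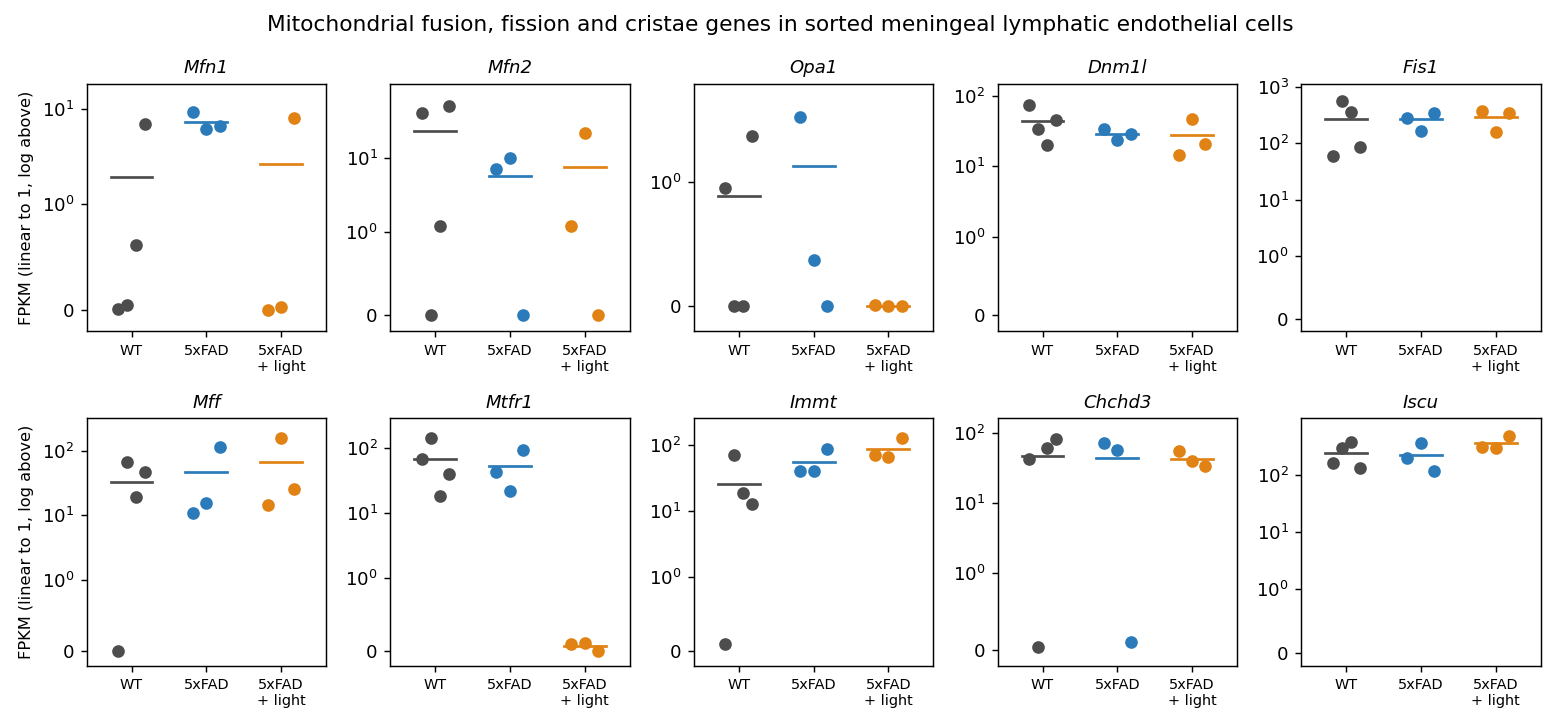
FPKM of the 10 genes in each mLEC sample, by group, on a scale that is linear to 1 and logarithmic above, with a line at the group mean (4 WT, 3 untreated and 3 light-treated 5xFAD mice). The 3 light-treated samples of Mtfr1 lie between 0.00 and 0.11 FPKM, below all others.

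In mLECs edgeR called 0 of 9 tested members between light-treated and untreated 5xFAD mice (0.0% of 8188 genes), with 1 at an unadjusted p below 0.05 (4.01% of genes). DESeq2 called 1 (4.48% of genes), limma called 0 (0.0% of genes), and the groups did not overlap for 1 (10.1% of genes). The 1 was Mtfr1 each time, with a log2 fold change of −9.27 (SE 1.89, adjusted p = 0.524) in edgeR, −9.41 (SE 1.28, adjusted p = 1.1e-10) in DESeq2 and −9.18 (adjusted p = 0.0195) in edgeR with no filter on low values. In limma on log2(FPKM + 1) it was −5.39 (adjusted p = 0.969), and the size depends on the small value added. Between untreated 5xFAD and WT mice edgeR called 0 (0.0% of genes), with 0 at an unadjusted p below 0.05 (3.81% of genes), DESeq2 called 0 (2.44% of genes), limma called 0 (0.0% of genes) and 0 did not overlap (6.23% of genes). Between light-treated 5xFAD and WT mice edgeR called 0 (0.0122% of genes), with 1 at an unadjusted p below 0.05 (6.72% of genes), DESeq2 called 1 (5.93% of genes), limma called 0 (0.0366% of genes) and the groups did not overlap for 1 (5.67% of genes). The 1 was again Mtfr1, at −9.94 (SE 1.92, adjusted p = 0.221) in edgeR, −10.14 (adjusted p = 4.89e-14) in DESeq2, −9.88 (adjusted p = 0.00449) with no filter and −5.60 in limma. Without WT replicates 2 and 4, low in lymphatic markers, its difference between light-treated and untreated mice was −9.27 and did not pass in edgeR. The left-out samples are in neither of these groups, so this fit cannot show their influence on that fold change. Red blood cell markers, led by Hba-a1, summed to 40.1, 0.12 and 6222 FPKM in untreated and 0.56, 0.72 and 0.19 FPKM in light-treated mice, with 1 of 3 at 0 in all samples. Of the 2 tested edgeR called 0 (2 lower at an unadjusted p below 0.05). Mural cell markers, led by Acta2 or Rgs5, summed to 302, 432 and 3.78 FPKM in untreated and 0.24, 4.10 and 17.7 FPKM in light-treated mice. Both sums overlapped between the groups. In light-treated against WT, 2 red blood cell and 1 mural cell markers, of 2 tested each, were lower at an unadjusted p below 0.05. edgeR called 0 of these. In WT the red blood cell sums lay between 0.19 and 303 FPKM and the mural cell sums between 0.15 and 455 FPKM. The part of these and of the lymphatic markers in the Mtfr1 result was not tested.

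The length measure of Chchd3 differed between the tissues. Its count divided by its FPKM and by the library total gives an implied transcript length, which was between 1221 and 1294 bases in hippocampus and between 1354 and 1537 bases in meninges, without overlap. For Actb, the reference, it was between 1945 and 1974 bases and between 1958 and 2044 bases. Which transcripts lie behind this was not tested. Dnm1l had implied lengths from 2760 to 3568 bases in hippocampus, and its untreated and WT groups overlapped in FPKM but not in TMM-normalised counts.

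Across the 10 meninges samples, after each group mean was removed, Mff, Mtfr1, Immt, Chchd3 and Iscu varied together, with Pearson correlations from 0.54 (Immt and Iscu) to 0.91 (Chchd3 and Iscu), so these 5 are not separate observations. Across the 12 hippocampus samples the same pairs had correlations from −0.07 to 0.29. Mfn2 and Fis1 had correlations of −0.93 in meninges and −0.81 in hippocampus. The other members were also correlated with the 5 in meninges. The correlations were from 0.43 to 0.71 for Mfn2, from −0.81 to −0.51 for Fis1 and from −0.76 to −0.36 for Dnm1l. They were from −0.56 to −0.12 for Mfn1 and from −0.25 to 0.53 for Opa1. These are descriptions across samples that share depth, tissue composition and library preparation. Over all 22 samples, with predicted genes (Gm and Rik names) left aside, the gene most like Iscu among 12211 compared was Tmem126a (0.94), most like Fis1 Stk39 (0.93), most like Mfn2 Fbxo21 (0.93), most like Mff Echdc1 (0.91) and most like Opa1 Ckap5 (0.90). For Mtfr1 it was Rabif (0.89), for Immt Dnaja2 (0.88), for Dnm1l Zbtb18 (0.87), for Chchd3 Bnip3l (0.84) and for Mfn1 Cep170b (0.84).

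The promoters of the members that fell in 5xFAD hippocampus are shown because Opa1 and Dnm1l were the called pair. Promoter entries, from 250 bases before to 50 after a start, were found in RefSeq (GRCm38.p6) for 8 of 10 members, and Mtfr1 and Iscu had none. The Opa1 entry lies at chr16:29579084-29579383 on the plus strand and the Dnm1l entry, the nearer of 2 to the annotated start, at chr16:16358982-16359281 on the minus strand. Capitals mark the NRF1 core GCATGCGC read on both strands, where the reading on each strand overlaps the other.
Opa1: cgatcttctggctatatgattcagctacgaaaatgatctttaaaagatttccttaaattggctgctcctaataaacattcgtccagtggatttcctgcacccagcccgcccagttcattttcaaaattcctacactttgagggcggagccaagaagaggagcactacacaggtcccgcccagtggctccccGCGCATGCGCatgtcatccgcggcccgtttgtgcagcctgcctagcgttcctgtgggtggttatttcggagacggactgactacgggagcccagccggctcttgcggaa
Dnm1l: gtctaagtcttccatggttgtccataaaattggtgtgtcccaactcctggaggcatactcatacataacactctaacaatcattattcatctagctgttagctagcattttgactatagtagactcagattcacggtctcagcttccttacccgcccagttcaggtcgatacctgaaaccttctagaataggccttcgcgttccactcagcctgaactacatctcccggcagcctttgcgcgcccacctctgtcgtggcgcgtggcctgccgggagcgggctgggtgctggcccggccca
Among the 13 entries of members only Opa1 held this motif, which 2.71% of 32851 promoters hold on either strand. The ERR motif TCAAGGTCA (0.423% of promoters), the CRE motif TGACGTCA (1.79%), the Ets motif ACCGGAAGT (1.10%) and the YY1 motif AAGATGGCG (1.40%) were not found in the members' entries. A match is a description of letters, not a site. The members' entries had a median GC content of 55.3% and 21 CpG dinucleotides, against 52.7% and 7 for all promoters.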

How the data were processed

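The tables hold 32 samples in 22 columns for hippocampus and meninges and 10 for mLECs, and no sample column was left unused. The authors deposited an expected count per gene, of the kind RSEM estimates, without normalization. The authors also deposited FPKM, scaled by transcript length and library total. The upstream steps are described in 2 ways: the study's methods name Smart-seq2 libraries, fastp, RSEM and DESeq2, and the labels name mm10, Trimmomatic, HISAT2, StringTie and DESeq2, with no versions. Which of the 2 made the deposited values is not known. Symbols differ between the tables for 30.8% of genes and were taken from the mLEC table. The annotation the authors used is not stated, and positions here are those of GENCODE vM21. Expected counts of Iscu and Mfn1 were not always whole (reads shared between genes) and all counts were rounded.

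The test kept a gene when 3 or more samples of the tissue reached FPKM 1, and was run with edgeR 4.0.16 in R 4.3.3, by TMM and the quasi-likelihood test with the 3 groups in 1 fit, with p adjusted by the Benjamini-Hochberg method. 95% intervals came from the fitted spread. Alternatives used DESeq2 1.42.0, limma 3.58.1 on log2(FPKM + 1), RLE scaling, other filters, fewer groups or samples and a 2-fold threshold. Tables were made with Python 3.11.15 and pandas 2.3.3. Replicates of a group spread beyond counting error: the chi-square over its degrees of freedom for a pair was 9.29 to 101 in hippocampus, 26.4 to 80.0 in meninges and 392 to 1866 in mLECs. The floor of 3 counts covers counting error only, and reads copied by PCR are not independent.

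The library total behind the FPKM was estimated from genes with 1 transcript and at least 500 counts, after the results were seen, as a ratio to the summed counts.

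Named genes are the 10 members, genes of the other lists that were called or had the smallest p, the gene most like each member, markers and Thy1. The members and lists were chosen with earlier results of these data known.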

Additional observations from a re-analysis of the deposited data

Results flagged for a closer look

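Of 50 groups of 4 samples, 2 held a sample far from the other 3, and chance flags about 1 in 20 groups. Mfn1 was at 7.03 FPKM in WT mLEC replicate 4, the highest of its group. Opa1 was at 16.3 FPKM in light-treated hippocampus replicate 2, the highest of its group.

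For 2 genes the light-treated and untreated 5xFAD groups were apart in opposite directions in different tissues. Mtfr1 had a log2 fold change of 0.83 in meninges and −9.27 in mLECs, where the light-treated samples had between 0 and 8 counts. The difference was not tested, since these samples are in separate tables. Immt had a log2 fold change of −0.077 in hippocampus and 0.47 in meninges. The difference of 0.52 (adjusted p = 0.140) did not pass in edgeR, and the hippocampus groups overlapped in TMM-normalised counts.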

How the results depend on the processing

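No called result reversed, but uncalled estimates changed sign under some alternatives in 9 of 10 comparisons. In the comparison of untreated 5xFAD with WT hippocampus the count of 2 called members became 1 with a mean FPKM of at least 5, 1 with only the compared groups, 1 with limma at either pseudocount and 0 with at least a 2-fold change. Leaving out 1 sample at a time gave between 1 and 3, with Mfn2 added without untreated replicate 4. Leaving out the libraries high in choroid plexus markers, chosen after seeing the data, gave 0, with fewer samples in the fit. Between light-treated 5xFAD and WT hippocampus 0 became 2 with only the compared groups and 2 with DESeq2. In mLECs 0 became 1 with no filter and 1 with DESeq2, in the comparisons of light-treated mice with untreated and with WT mice. The other counts stayed within 1.5 times, and the meninges counts at 0 stayed 0. The cause was not tested.

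With the replicate number as a replicate block, the count was 1 in the comparison of untreated 5xFAD with WT hippocampus, 6 between WT meninges and hippocampus, and 0 in the others. Within a tissue, samples of different groups with the same number did not correlate (median −0.014 in hippocampus, −0.070 in meninges and 0.002 in mLECs), so the block has no stated basis there. Whether hippocampus and meninges samples of the same number came from the same mouse is not stated, and this was not tested.

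With Spearman in place of Pearson, 10 of the 30 most like genes (3 for each member) were the same. The named gene stayed first only for Mfn2 (Fbxo21) and Fis1 (Stk39). Cep170b, Zbtb18, Dnaja2 and Bnip3l were no longer among the first 3. The mLEC replicates spread most, so small differences there were not detectable.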
